A study of Mus musculus with 28 samples.

Results

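Transcripts of the NMDA receptor subunits were followed along 3 axes of the mouse brain. The family has 7 genes, Grin1, Grin2a, Grin2b, Grin2c, Grin2d, Grin3a and Grin3b, of the 20656 gene symbols that could be assigned to probes of the array. They were looked up by gene symbol, and 10 of the 55681 probes belong to them. Grin1, Grin2a and Grin2b have 2 probes each, and the probe with the highest mean level over all 28 arrays was used for each gene. All 7 genes passed the filter on dim probes, under which a probe is tested if every series has a fraction where its signal is well above background.

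The samples came from 3 C57BL/6J males at 3 weeks after birth, with no treatment named. In Transcriptome Tomography a whole brain is sliced from end to end and the slices are collected in thick slabs, here called fractions, whose RNA is measured. There were 12 coronal fractions, 10 sagittal and 6 horizontal ones, and each series came from 1 mouse, so plane and mouse cannot be told apart. Each fraction was measured on 1 array, so no position was repeated and the p-values below measure only the spread between fractions of single brains. Position is given as the fraction number, and the label of coronal fraction 12 names a further fraction combined with it. A fraction mixes all cells of its slab, and in such mixtures fewer cells of a type and less RNA per cell cannot be told apart.

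NMDA receptors are glutamate-gated cation channels that pass calcium and that magnesium blocks at rest, so they open when glutamate arrives at an already depolarised neuron. GluN1, encoded by Grin1, is the obligatory subunit and binds the co-agonist glycine or D-serine. The GluN2 subunits, encoded by Grin2a to Grin2d, bind glutamate and set how long the channel stays open. The GluN3 subunits, encoded by Grin3a and Grin3b, bind glycine and lower calcium entry. In the forebrain GluN2B is prominent early in life and GluN2A becomes more so after birth, mature cerebellar granule cells are known for GluN2C, and GluN2D is known from the diencephalon and brainstem and from interneurons.

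Levels are log2 of the processed signal of a probe minus log2 of the 75th percentile of that array, so a level of 0 is the 75th percentile and a difference of 1 is a doubling. That percentile lay between 135 and 574 units of signal, and 24822 to 34240 probes per array were well above background. A level depends on the probe, so levels of different genes were not ranked against each other. In the coronal series, markers of cerebellar granule cells, Purkinje cells and hindbrain neurons were highest in fractions 1 to 3. All 7 granule cell markers, all 5 Purkinje cell markers and all 4 hindbrain markers with a probe were higher there than in fractions 4 to 12. Of all probes tested, 6.22% were called higher there. The 5 olfactory bulb markers were all higher in fractions 11 and 12 than in 4 to 10, where 8.28% of all probes were. These blocks were set from marker lists in an earlier analysis of these data. The counts therefore describe the blocks and do not test them.

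Promoter windows from RefSeq were matched for 4 of the 7 genes, Grin1, Grin2c, Grin2d and Grin3b. The 250 bases before the transcription start of Grin2c and Grin3b are shown because these genes rose in the same coronal fractions and differ in base composition. The window of Grin2c is chr11:115267244-115267493 on the minus strand and that of Grin3b is chr10:79970474-79970723 on the plus strand, both in GRCm38.p6 and written 5′ to 3′ along the gene. Capitals mark GGGCGG, the core of a GC box, searched on both strands.

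Grin2c: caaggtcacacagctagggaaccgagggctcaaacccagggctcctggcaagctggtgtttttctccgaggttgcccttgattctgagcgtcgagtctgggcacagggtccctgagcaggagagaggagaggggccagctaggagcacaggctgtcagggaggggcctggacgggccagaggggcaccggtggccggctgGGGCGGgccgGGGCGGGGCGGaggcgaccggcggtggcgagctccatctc

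Grin3b: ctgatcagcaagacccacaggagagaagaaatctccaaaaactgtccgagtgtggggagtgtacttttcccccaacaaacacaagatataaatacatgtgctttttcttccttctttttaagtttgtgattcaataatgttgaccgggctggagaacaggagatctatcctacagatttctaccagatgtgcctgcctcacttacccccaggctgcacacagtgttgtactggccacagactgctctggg

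Grin2c has 3 matches, between 35 and 50 bases before the start, of which the last 2 overlap by 1 base. Grin3b, Grin1 and Grin2d have none in their windows. Of 32851 windows of this length, 32.7% hold a match and 8.47% hold at least 3. The GC content is 68.8% for Grin2c, 46.0% for Grin3b, 58.8% for Grin1 and 54.4% for Grin2d, against a median of 52.4%. A match describes the sequence only.

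Along the coronal axis the family did not move as a group. Grin2b was low in fractions 1 to 3, Grin2c and Grin3b were high there, and Grin1 stayed within 1.26 log2 units over the whole series. The position trend, a limma F-test of a smooth spline curve through the fraction numbers with Benjamini-Hochberg adjustment over all 32364 probes tested, called Grin2b, Grin2c and Grin3b. That is 3 of 7 genes, where 33.7% of all probes tested were called.

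**Figure D1:**
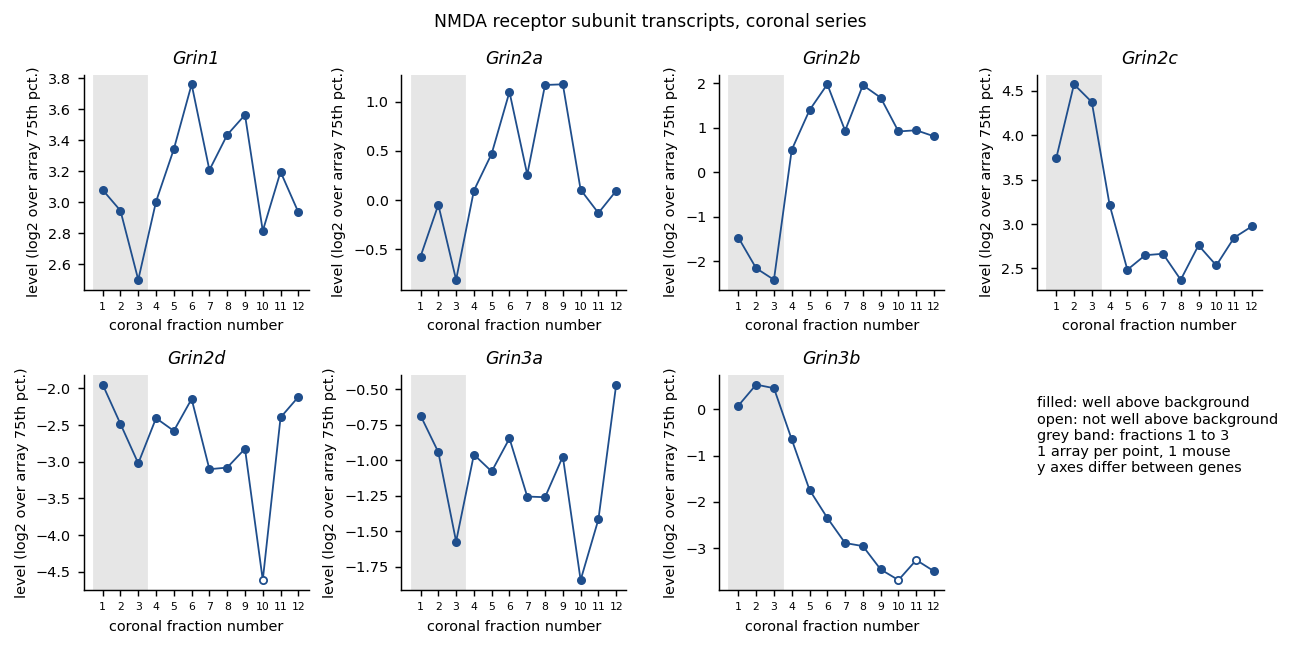
Level of each NMDA receptor subunit transcript (log2 over the 75th percentile of the array, y axes differ between genes) against coronal fraction number, 1 array per point. Grin2b sits below -1.4 in fractions 1 to 3 (grey band) and above 0.5 in the others, while Grin2c and Grin3b are highest in the band, and open points were not well above background.

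Grin1, the subunit every NMDA receptor contains, had levels of 3.08, 2.95 and 2.50 in coronal fractions 1 to 3. In fractions 4 to 12 its levels were 3.00, 3.34, 3.76, 3.21, 3.44, 3.56, 2.82, 3.20 and 2.94. The lowest value was that of fraction 3 and the highest that of fraction 6, a span of 2.40-fold, and the ranges of both blocks overlapped. The mean of fractions 1 to 3 was 2.84 ± 0.30 (SD, n = 3) and that of fractions 4 to 12 was 3.25 ± 0.31 (SD, n = 9). Their difference of -0.41 (SE 0.21) did not pass the test (limma adjusted p = 0.224), nor did the trend (adjusted p = 0.308). With 1 fraction left out at a time, the difference ran from -0.53 to -0.24. The second Grin1 probe, which was dimmer, had a difference of -0.70 and correlated with the probe used at r = 0.68 over the 28 fractions. The probes disagreed on the trend, since that of the second probe spanned 1.01 log2 units, was highest at fraction 9 and was called (adjusted p = 0.0212).

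Grin2b was lower in coronal fractions 1 to 3 on both of its probes. Its levels in fractions 1 to 3 were -1.47, -2.15 and -2.41. In fractions 4 to 12 they were 0.50, 1.39, 1.98, 0.93, 1.96, 1.67, 0.92, 0.94 and 0.81. Every fraction from 4 on was above each of the first 3, and the step between fractions 3 and 4 was the sharpest in the profile. The mean was 9.48-fold lower in fractions 1 to 3, a log2 difference of -3.25 (SE 0.33, limma adjusted p = 0.000123). The fitted trend spanned 4.18 log2 units, a range wider than that of 98.2% of the probes tested (adjusted p = 0.0100). The second Grin2b probe gave a difference of -2.90 and correlated with the first at r = 0.93 over 28 fractions.

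Grin2c ran the other way along this axis. In fractions 1 to 3 its levels were 3.74, 4.57 and 4.37. In fractions 4 to 12 they were 3.22, 2.49, 2.65, 2.67, 2.37, 2.76, 2.53, 2.85 and 2.97. Fraction 4 lay between fractions 1 to 3 and the rest, and the blocks did not overlap. The mean was 2.84-fold higher in fractions 1 to 3, a log2 difference of 1.51 (SE 0.21, limma adjusted p = 0.000722). Its trend spanned 1.91 log2 units (adjusted p = 0.0193), a call lost without fraction 2 (adjusted p = 0.0647).

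Grin2a, the subunit that becomes more abundant in the forebrain after birth, had the direction of Grin2b and lay near the threshold of the coronal tests without passing them. Levels were -0.57, -0.05 and -0.81 in fractions 1 to 3. They were 0.10, 0.47, 1.10, 0.26, 1.17, 1.18, 0.11, -0.13 and 0.09 in fractions 4 to 12. Fraction 2 lay above fraction 11, so the blocks overlapped, and the highest levels were those of fractions 6, 8 and 9. The difference of -0.96 (SE 0.31) had a limma adjusted p of 0.0669 and the trend one of 0.0529. The trend passed the threshold when fraction 7, 10 or 12 was left out (adjusted p = 0.0411, 0.0435 and 0.0410), with normexp background correction (0.0277) and with 1 spline degree of freedom fewer (0.0326). With other fractions left out in turn its adjusted p rose to as much as 0.121. The difference passed the threshold without fraction 11, where it was -1.04. The second, dimmer Grin2a probe had a smaller difference of -0.36. Its trend spanned 1.42 log2 units and was not called (limma adjusted p = 0.178).

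Grin2d had a dim probe, which failed the well-above-background flag on all but 22 arrays, coronal fraction 10 among the failures. Levels in fractions 1 to 3 were -1.95, -2.48 and -3.02. In fractions 4 to 12 they were -2.41, -2.58, -2.14, -3.10, -3.08, -2.82, -4.61, -2.40 and -2.12. The highest fraction was 1 and the next was 12, at opposite ends of the brain, and the difference of 0.32 (SE 0.44) was within the spread (limma adjusted p = 0.679). The trend did not pass the test either (adjusted p = 0.410).

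Of the GluN3 genes, which were not tested against each other, Grin3a had levels of -0.69, -0.94 and -1.57 in fractions 1 to 3, and the other fractions ran from -1.85 (fraction 10) to -0.47 (fraction 12). The blocks overlapped fully, with a difference of 0.06 (SE 0.26, limma adjusted p = 0.911) and no called trend (adjusted p = 0.703).

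Grin3b, known as a subunit of motor neurons, fell along the coronal series. Its levels were 0.08, 0.53 and 0.46 in fractions 1 to 3. In fractions 4 to 12 they were -0.65, -1.74, -2.34, -2.89, -2.95, -3.46, -3.69, -3.25 and -3.50. From fraction 4 to fraction 10 each level was lower than the one before it. Fractions 10 and 11 were not well above background, so the span of the series was at least 16.3-fold. The mean was 3.08 log2 units higher in fractions 1 to 3 (SE 0.54, 8.43-fold, limma adjusted p = 0.00314). The probe was well above background in 7 of the 9 fractions 4 to 12, so the fold takes in dim values. The trend spanned 4.20 log2 units (adjusted p = 0.000185).

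Of the 7 genes, Grin2c and Grin3b were higher in fractions 1 to 3, where 6.22% of all probes were called higher, and Grin2b was lower, where 5.73% were called lower. These 3 were also the genes whose blocks did not overlap, as was the case for 12.9% of all probes. Summed levels of marker lists moved with these differences, given here relative to the 75th percentile on the linear scale. Such a sum mostly follows the brightest genes of its list. The granule cell list ran from 162 to 322 in fractions 1 to 3 and from 12.7 to 84.1 in the others. The Purkinje cell list ran from 486 to 611 against 14.0 to 173, and the hindbrain list from 0.584 to 19.5 against 0.0551 to 0.634. The list of excitatory neurons of cortex and hippocampus had 6 of 7 genes lower in fractions 1 to 3, with sums of 19.9 to 30.4 against 18.9 to 74.7. The astrocyte list had 2 of 5 genes higher, with sums of 134 to 169 against 80.0 to 109. The pan-neuronal list had 1 of 5 genes lower and sums of 373 to 459 against 307 to 504. The inhibitory interneuron list had 1 of 7 genes higher and 3 lower, with sums of 423 to 550 against 183 to 307. Its median gene difference was -0.98 log2 units, opposite in sign to the sums. The thalamic list had 1 of 5 genes higher and the striatal list 1 of 6 lower, and the sums of both overlapped. The part of these cell types in the subunit differences was not tested.

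The coronal fractions lay on 3 slides, with fractions 1 and 2 on the first, 3 to 10 on the second, and 11 and 12 on the third. Within the second slide, fraction 3 differed from the mean of fractions 4 to 10 by -3.75 for Grin2b, 1.70 for Grin2c and 2.99 for Grin3b. With slide as a term in the fit these same differences had limma adjusted p of 0.00404, 0.0175 and 0.0813. They then rest on fraction 3 alone against 4 to 10, an arm of 1 array that is assumed to vary like the others. The coronal trends with slide as a term had adjusted p of 0.266 for Grin2b, 0.405 for Grin2c and 0.0298 for Grin3b. Their ranges were then 5.83, 2.19 and 5.11 log2 units, against 4.18, 1.91 and 4.20 without slide. Over fractions 3 to 10 alone the adjusted p were 0.0364, 0.0267 and 0.00845.

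**Figure D2:**
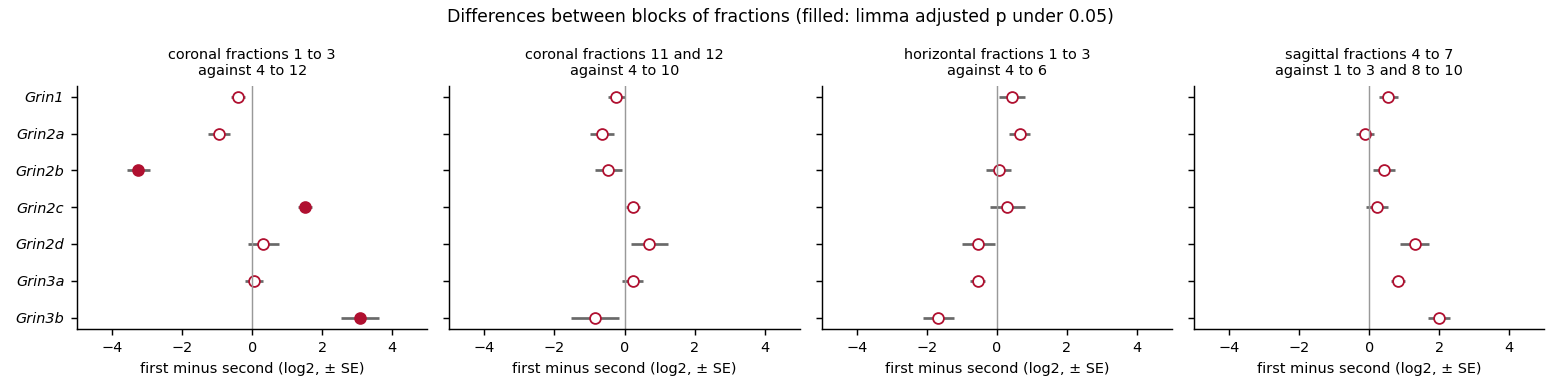
Difference between the means of 2 blocks of fractions (log2, first minus second, bars are SE) for the 7 subunit transcripts in 4 comparisons. Filled points passed limma at an adjusted p under 0.05, which were Grin2b, Grin2c and Grin3b in coronal fractions 1 to 3 against 4 to 12 and no gene in the other comparisons.

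The rostral end of the coronal series gave no called difference. Of the 7 genes, 0 differed between fractions 11 and 12 and fractions 4 to 10 by limma, 0 also at an unadjusted p under 0.05, while 18.9% of all probes tested were called. Grin2a had levels of -0.13 and 0.09 in fractions 11 and 12 and did not overlap with fractions 4 to 10, where the lowest level was 0.10. Its difference was -0.64 (SE 0.34, adjusted p = 0.222), and 30.2% of all probes had blocks that did not overlap. Grin2d was higher by 0.71 (SE 0.53, adjusted p = 0.384) and Grin3b lower by 0.84 on the log2 scale (a difference of -0.84, SE 0.69, adjusted p = 0.426), and both overlapped. With 1 fraction left out at a time, the difference ran from 0.43 to 0.85 for Grin2d and from -1.04 to -0.53 for Grin3b. Neither probe was well above background in fraction 10, nor that of Grin3b in fraction 11.

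Several marker lists separated the first 3 fractions of the horizontal series from the last 3 without any of their genes passing the test. Summed levels of the cortex and hippocampus list were 57.2 to 73.3 in fractions 1 to 3 and 20.5 to 40.1 in fractions 4 to 6. Those of the hypothalamic list were 1.94 to 4.00 against 4.40 to 103. The hindbrain list had sums of 0.0507 to 0.0726 against 0.872 to 3.23 and the oligodendrocyte list 170 to 835 against 886 to 1014. Olfactory sensory markers had 136 to 160 against 56.2 to 126 and astrocyte markers 104 to 108 against 81.7 to 98.2. The olfactory sensory sums mostly follow the brightest gene, Gng13 (mean level 7.09), and the median gene difference of that list was 0.49 log2 units. All horizontal fractions lay on 1 slide. Grin2c and Grin3b had a called trend here, 2 of 7 genes, where 15.8% of all probes were called.

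Grin2c had horizontal levels of 2.40, 3.29, 3.59, 3.61, 2.72 and 2.04. It was highest in the middle fractions 3 and 4, which differed by 0.02, and lowest at the last. The fitted trend spanned 1.68 log2 units (limma adjusted p = 0.0225). Over the 6 fractions Grin2c had r = 0.98 with the mean log2 level of the Purkinje cell list. It had 0.87 with the granule cell list and 0.82 with the olfactory bulb list, but -0.75 with the hypothalamic list and -0.78 with meningeal cell markers. Grin3b had levels of -3.53, -2.33, -2.02, -1.26, -0.60 and -1.01, rising up to fraction 5, with fraction 1 not well above background. Its trend spanned 2.65 log2 units (adjusted p = 0.0222). Both calls were lost without fraction 1, 3 or 4, with adjusted p of 0.0562, 0.0821 and 0.0880 for Grin2c and 0.117, 0.0686 and 0.0732 for Grin3b. That of Grin2c was also lost without fraction 6 (0.0587). With 1 spline degree of freedom fewer both were lost, with a range of 0.50 for Grin2c (0.875) and 2.65 for Grin3b (0.134).

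The other 5 genes did not pass the horizontal trend test on the probe used. When arrays were scaled to their median, 6 of the 7 genes passed, where 59.7% of all probes were called. Grin2a had levels of 0.89, 0.74, 0.29, 0.31, 0.20 and -0.55, highest in fraction 1 and lowest in fraction 6 (adjusted p = 0.0589, 0.0452 without fraction 5 and 0.0229 with normexp). Grin2d had levels of -3.81, -3.28, -2.69, -2.29, -2.32 and -3.60, with fractions 1 and 6 not well above background (adjusted p = 0.0669, 0.0487 without fraction 6, and 0.0396 with quantile normalization, where the range was 2.43 against 1.61). Grin1 stayed between 3.07 and 3.29 in fractions 1 to 5 and was 1.92 in fraction 6 (adjusted p = 0.107, and 0.0353 with normexp). On the second, dimmer Grin1 probe the horizontal trend spanned 1.40 log2 units and was called (adjusted p = 0.0400). That of the second, dimmer Grin2a probe spanned 0.49 log2 units, against 1.26 on the probe used, and was not called (adjusted p = 0.504). Grin2b ran from 0.45 to 0.90 in fractions 1 to 5 and was -0.33 in fraction 6 (adjusted p = 0.298). Grin3a ran from -1.46 in fraction 1 to -0.46 in fraction 5 (adjusted p = 0.267). Fraction 6 thus held the lowest level of Grin1, Grin2a, Grin2b and Grin2c. Over the 6 fractions the mean log2 level of the pan-neuronal list had r = 0.92, 0.88 and 0.87 with Grin1, Grin2a and Grin2b, and that of the inhibitory interneuron list 0.94, 0.92 and 0.82.

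Horizontal fractions 1 to 3 against 4 to 6 gave 0 called genes by limma, as it did over all 32364 probes. At an unadjusted p under 0.05 the count was 2, Grin3a and Grin3b. Grin3b was lower in fractions 1 to 3 by a mean of -1.67 (SE 0.43, p = 0.00842, adjusted p = 0.814) and Grin3a by -0.55 (SE 0.21, p = 0.0413, adjusted p = 0.897). Neither overlapped between blocks, a pattern that 12.2% of all probes showed. Over the 6 fractions the hindbrain list had r = 0.84 with Grin3b and 0.91 with Grin3a, and the oligodendrocyte list 0.89 and 0.67. The striatal list had 0.80 and 0.73, the thalamic list 0.60 and 0.67, and the hypothalamic list 0.65 and 0.56. The cortex and hippocampus list went the other way, with -0.88 and -0.68. The part of these cell types in the horizontal levels was not tested.

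**Figure D3:**
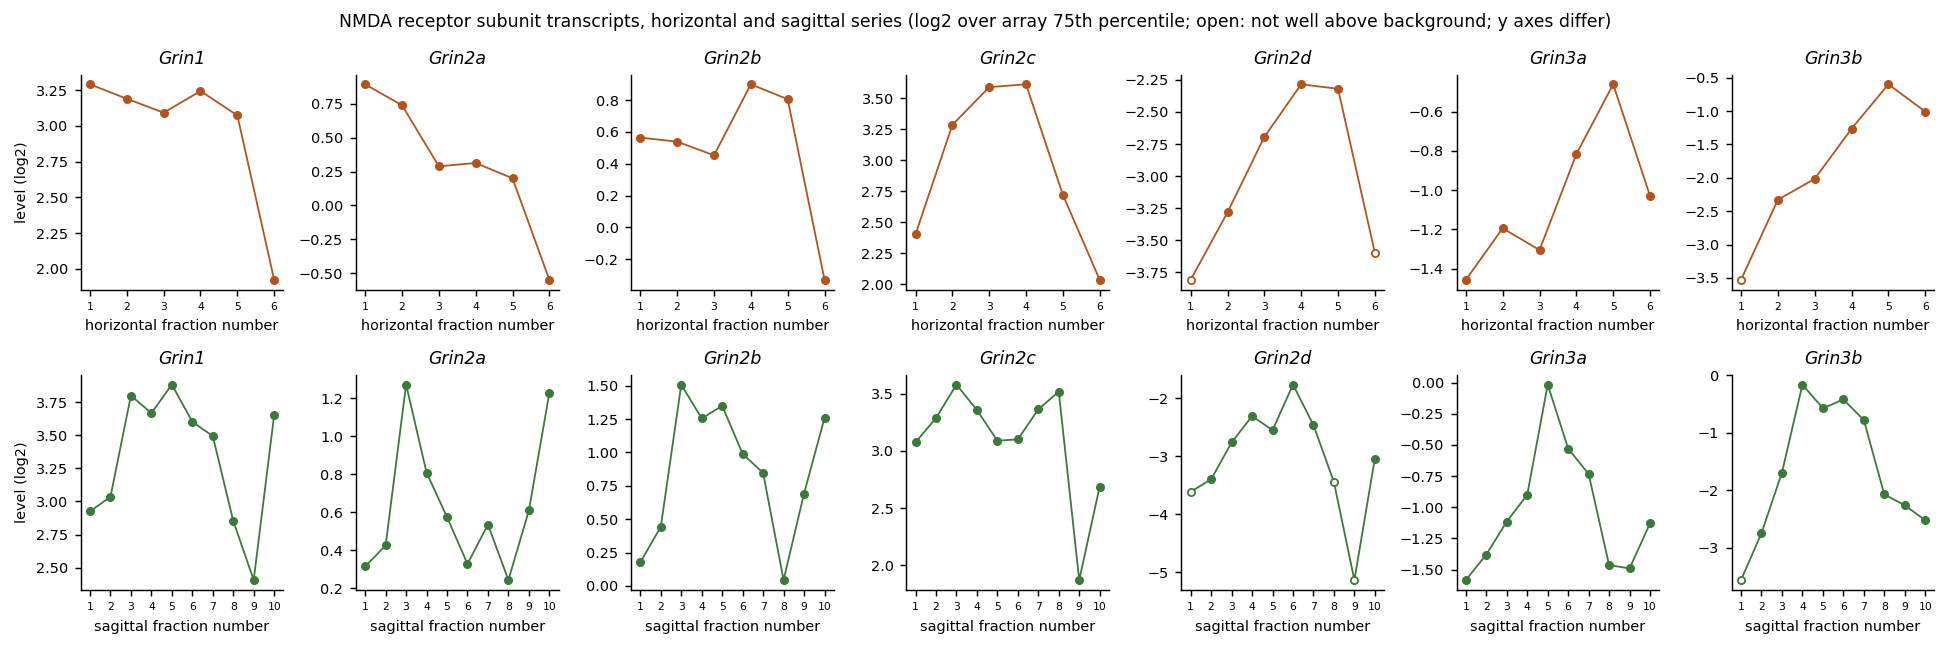
Level of each subunit transcript (log2 over the 75th percentile of the array, y axes differ) against fraction number in the horizontal series (top, 6 fractions) and the sagittal series (bottom, 10 fractions), 1 array per point, open where not well above background. Grin1, Grin2a, Grin2b and Grin2c have their lowest horizontal level in fraction 6, and Grin3b peaks in the middle of the sagittal series.

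In the sagittal series Grin3b was the 1 gene of 7 with a called trend, where 14.7% of all probes were called. Its levels were -3.56, -2.75, -1.69, -0.16, -0.57, -0.42, -0.78, -2.07, -2.26 and -2.52. The 4 middle fractions were the highest and the outer ones fell off on both sides, and fraction 1 was not well above background. The trend spanned 3.42 log2 units (limma adjusted p = 0.00952). It was not called without fraction 1 (adjusted p = 0.106) or over fractions 5 to 10 alone (0.690). Those share a slide, fractions 1 to 4 lie on a slide scanned on another day, and with slide as a term the adjusted p was 0.0256.

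Grin3a and Grin2d were also high near the middle. Grin3a was highest in fraction 5, at -0.02, with 6 and 7 at -0.53 and -0.73, and its lowest level was -1.58 in fraction 1. Grin2d was highest in fraction 6, at -1.76, and was not well above background in fractions 1, 8 and 9. In fractions 4 to 7 against the outer 6, Grin3b was higher by 1.99 (SE 0.32, limma adjusted p = 0.0506), Grin2d by 1.29 (SE 0.41, 0.140) and Grin3a by 0.82 (SE 0.20, 0.133). The blocks of these 3 genes did not overlap, as was so for 8.44% of all probes. No gene passed the adjusted threshold, 3 did at an unadjusted p under 0.05, and 0.148% of all probes were called, 0.133% higher and 0.0154% lower. Without fraction 3 the same 3 genes were called, at 2.15, 1.46 and 0.86, and without fraction 1 Grin3b was called, at 1.78. Grin3b was also called with the array median, at 2.45 (adjusted p = 0.0157), and with normexp, at 1.05 (0.0283).

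The markers of hindbrain neurons moved with this pattern, with sums of 1.65 to 2.67 in fractions 4 to 7 and 0.0443 to 0.400 in the outer fractions, and 2 of 4 genes higher. Hypothalamic markers had sums of 37.1 to 73.4 against 1.59 to 13.4, with 1 of 5 genes higher. Thalamic markers had sums of 18.2 to 24.0 against 4.69 to 12.6, with 0 of 5 genes called. The cortex and hippocampus list had sums of 34.6 to 40.5 against 44.8 to 72.5, with 0 of 7 genes called and a median gene difference of -0.53 log2 units. The olfactory sensory list had sums of 104 to 137 against 140 to 485, with 0 of 4 called. Its median gene difference was 1.02, opposite in sign to the sums. Those sums mostly follow Gng13, at a mean level of 7.09 against -1.53 to 0.79 for the other genes. The part of these cell types in the levels of Grin3b, Grin3a and Grin2d was not tested.

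Other subunits had flatter or more broken sagittal profiles. Grin2c stayed between 3.08 and 3.58 in fractions 1 to 8 and was 1.87 and 2.69 in fractions 9 and 10 (trend adjusted p = 0.389). Grin2b was highest in fraction 3, at 1.51, and lowest in fraction 8, at 0.04 (adjusted p = 0.0864). Grin2a was highest in fractions 3 and 10, at 1.27 and 1.23, and lowest in fraction 8, at 0.24 (adjusted p = 0.156). Grin1 ran from 2.41 in fraction 9 to 3.88 in fraction 5 (adjusted p = 0.264). Without fraction 10 the trends of Grin1, Grin2d and Grin3a were called as well (adjusted p = 0.0113, 0.00517 and 0.0356).

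Fractions at equal distance from both ends of the sagittal series form 5 mirror pairs. The median absolute difference within a pair was 0.06 log2 units for Grin2c, 0.27 for Grin2a, 0.35 for Grin3a, 0.41 for Grin2b, 0.48 for Grin3b, 0.63 for Grin1 and 0.68 for Grin2d. The value of Grin2d is not exact, since its probe was not well above background in fractions 1, 8 and 9. The widest pair for Grin2c was 2 and 9, which differed by 1.42. Fractions 1 to 4 and 7 to 10 lie on different slides with different scan days, so side and slide cannot be told apart in 4 of the 5 pairs.

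The balance between subunits was compared on each array as the difference of 2 probes, in which the scaling of the array cancels. Of the 10 pairs among Grin1 and Grin2a to Grin2d, 7 had a called coronal trend. The reference of a pair is the subunit named second, and a pair was adjusted among all probes set against that reference. All probes set against the same reference share the values of that probe. The share of all probes called was 16.2% relative to Grin1, 40.2% relative to Grin2a, 96.3% relative to Grin2b and 76.4% relative to Grin2c. The calls of Grin2c and Grin2d against Grin2b are thus shared by nearly all probes. An F-test that estimates the variance of each pair alone, added after seeing the data, called 5 of the 10.

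**Figure D4:**
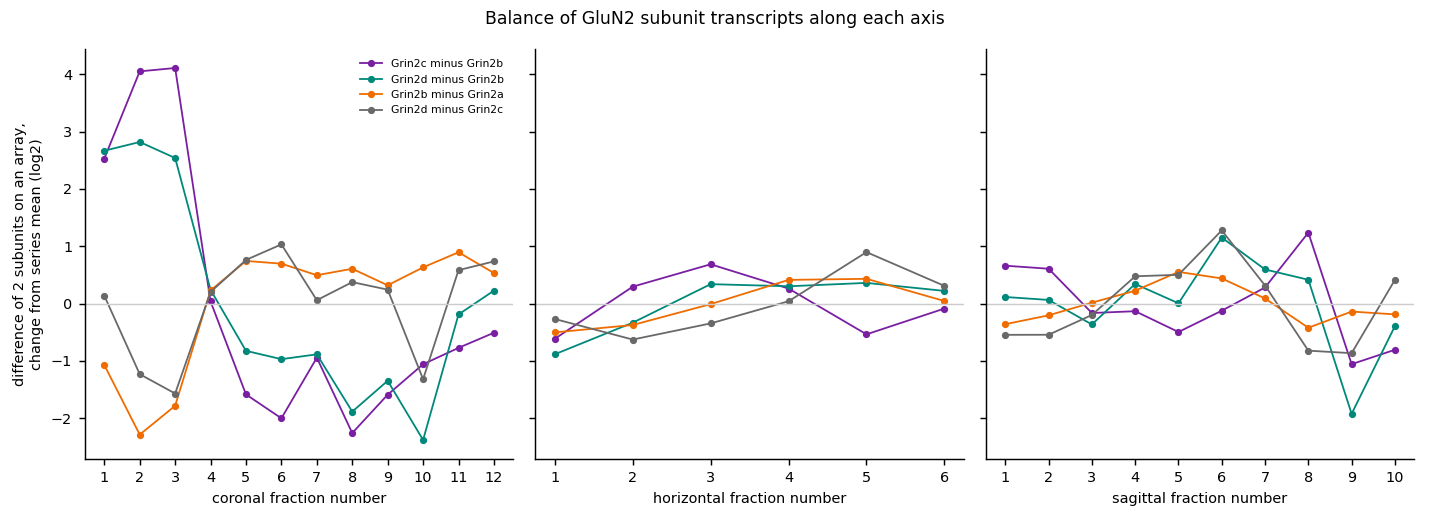
Difference between the levels of 2 GluN2 transcripts on the same array, as its change from the mean of the series (log2), against fraction number in the 3 series, 1 array per point. Grin2c minus Grin2b is 2.53 to 4.11 above its coronal mean in fractions 1 to 3 and at most 0.04 above it in the others.

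Grin2c minus Grin2b changed most of the 10 pairs along the coronal axis by fitted range. Relative to the coronal mean it was 2.53, 4.05 and 4.11 in fractions 1 to 3, 0.04 in fraction 4 and between -2.26 and -0.51 in fractions 5 to 12. The fitted range was 6.08 log2 units (limma adjusted p = 1.02e-07, and 0.0166 by the F-test of the pair alone). Grin2d minus Grin2b had a range of 5.07 (adjusted p = 1.09e-05, alone 0.0165), with 2.67, 2.82 and 2.54 in fractions 1 to 3. Grin2c minus Grin2a had a range of 3.41 (0.00470, alone 0.0438) and Grin2d minus Grin2a one of 2.40 (0.0108, alone 0.0431).

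Grin2b against Grin2a, the pair whose balance is known to shift with age in the forebrain, had a coronal range of 2.69 (limma adjusted p = 0.0126, alone 0.0533). The difference was -1.07, -2.29 and -1.78 relative to the mean in fractions 1 to 3 and between 0.23 and 0.89 in fractions 4 to 12. Against Grin1, Grin2b had a range of 3.60 (0.00428, alone 0.0357) and Grin2c one of 2.48 (0.0372, alone 0.106). The call of Grin2c against Grin1 was also lost with no filter on dim probes (0.0731) and without fraction 2, 4, 6, 7, 8, 9 or 11 (up to 0.145). Grin2a against Grin1 (0.219), Grin2d against Grin1 (0.0524) and Grin2d against Grin2c (0.460) were not called, though both pairs of Grin2d turned on the setting. Grin2d against Grin2c was called without fraction 1 (range 2.49, adjusted p = 0.0141) and with normexp (0.00990). Grin2d against Grin1 was called with quantile normalization (0.0440), with the mean of all probes of a gene (0.0251) and without fraction 3 (0.0495) or 10 (0.0141). With slide as a term, 1 of the 10 pairs was called, Grin2c minus Grin2b. The pairs that lost their call had wider ranges than without slide. These were 6.21 for Grin2d minus Grin2b, 5.26 for Grin2c minus Grin2a and 4.34 for Grin2d minus Grin2a. They were 4.38 for Grin2b minus Grin1, 3.64 for Grin2c minus Grin1 and 2.76 for Grin2b minus Grin2a. Over fractions 3 to 10 alone, on 1 slide, 6 of the 10 pairs were called. Lost were Grin2b minus Grin2a (range 2.51 against 2.69, adjusted p = 0.0742) and Grin2d minus Grin2a (2.44 against 2.40, 0.0565). Grin2d minus Grin2c was gained (range 2.34, adjusted p = 0.00750).

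In the horizontal series 3 pairs were called by limma, Grin2d minus Grin1 (adjusted p = 0.0401), Grin2c minus Grin2a (0.0385) and Grin2d minus Grin2a (0.0148), and 0 by the F-test of the pair alone. The share of all probes called was 17.2% relative to Grin1, 43.5% relative to Grin2a, 15.1% relative to Grin2b and 84.6% relative to Grin2c. All 3 calls were lost with 1 spline degree of freedom fewer. Grin2d minus Grin2c was called with normexp (range 1.83 against 1.12, limma adjusted p = 5.37e-08). With quantile normalization Grin2d minus Grin2b was called (range 2.13 against 1.30, adjusted p = 0.0479). Grin2d minus Grin2a was lowest in fraction 1 by the fitted curve and highest in fraction 4, with Grin2d not well above background in fractions 1 and 6. In the sagittal series 0 pairs were called by either test, and 1 had an unadjusted p under 0.05, Grin2c minus Grin2a. The share of all probes called there was 15.8% relative to Grin1, 11.2% relative to Grin2a, 28.2% relative to Grin2b and 0.575% relative to Grin2c.

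Across fractions the correlations between subunits describe the same profiles, over points that share a brain and a few slides. Over the 12 coronal fractions Grin2b and Grin2c had r = -0.96, Grin2c and Grin3b had 0.86, and Grin1 and Grin2a had 0.86. Other series gave other values, since Grin2b and Grin2c had r = 0.63 over the 6 horizontal and 0.02 over the 10 sagittal fractions. Grin2c and Grin3b had -0.00378 in the horizontal and 0.26 in the sagittal series. Grin2d and Grin3a stayed between 0.71 and 0.83 in the 3 series, and Grin3a and Grin3b had 0.15 in the coronal, 0.87 in the horizontal and 0.81 in the sagittal series.

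Partner genes of the receptor were described next, from a list of scaffold, kinase, transport and co-agonist genes, of which 42 were tested. In the coronal series 29 of 42 had a called trend, against 33.7% of all probes, and the median fitted range was 1.35 against 0.90 log2 units. In the horizontal series 12 were called, against 15.8% of all probes, and in the sagittal series 4, against 14.7%. These 2 counts turned on the scaling. When arrays were scaled to their median, 39 genes were called in the horizontal series, where 59.7% of all probes were, and 0 in the sagittal series, where 1.05% were and 7 of the 42 genes had an unadjusted limma p under 0.05. In at least 1 series 34 were called, against 50.1% of all probes.

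**Figure D5:**
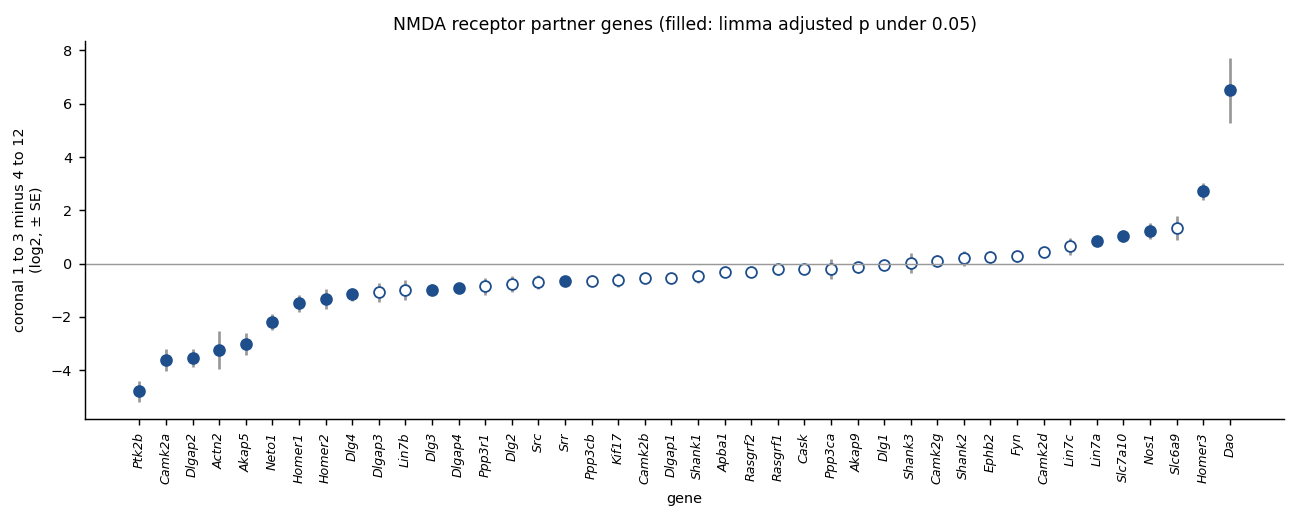
Mean level in coronal fractions 1 to 3 minus that in fractions 4 to 12 (log2, bars are SE) for the 42 partner genes tested, ordered by size, with filled points for limma adjusted p under 0.05. 12 genes were lower and 5 higher in fractions 1 to 3, from Ptk2b at -4.79 to Dao at 6.50, where 5.73% of all probes were called lower and 6.22% higher.

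The 12 partner genes lower in fractions 1 to 3, against 5.73% of all probes, included kinases, scaffolds and a D-serine enzyme. Ptk2b, a calcium-activated tyrosine kinase, differed by -4.79 (SE 0.40, limma adjusted p = 3.42e-05). Camk2a, a subunit of the kinase that binds the GluN2B tail and also 1 of the 7 genes of the cortex and hippocampus list, differed by -3.61 (SE 0.40, adjusted p = 0.000235). The scaffold gene Dlgap2 differed by -3.54, the actin cross-linker Actn2 by -3.25, the kinase anchor Akap5 by -3.02 and Neto1, an auxiliary protein of glutamate receptors, by -2.20. Dlg4, which encodes the scaffold PSD-95, differed by -1.15 (adjusted p = 0.0106) and Homer1 by -1.49. The others called lower were Homer2, Dlg3, Dlgap4 and Srr, the enzyme that makes D-serine, at -0.66.

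The 5 genes higher in fractions 1 to 3, against 6.22% of all probes, were Dao, Homer3, Nos1, Slc7a10 and Lin7a. Dao, the enzyme that degrades D-serine, differed by 6.50 (SE 1.22, limma adjusted p = 0.00471) and Homer3, a postsynaptic scaffold, by 2.72 (SE 0.32, adjusted p = 0.00034). Nos1, the neuronal nitric oxide synthase, differed by 1.22, Slc7a10, a transporter of small neutral amino acids that carries D-serine, by 1.03, and Lin7a by 0.86. The glycine transporter gene Slc6a9 had a difference of 1.33 that did not pass (adjusted p = 0.0778). The median difference over the list was -0.50, against 0.00 over all probes. The rostral comparison, fractions 11 and 12 against 4 to 10, had 1 partner gene higher and 7 lower, where 8.28% and 10.7% of all probes were called.

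Ranked by fitted coronal range, the 8 leading partner genes with a called trend were Dao (9.48), Ptk2b (6.22), Camk2a (4.79), Dlgap2 (4.65), Akap5 (4.37), Actn2 (4.27), Homer3 (3.83) and Neto1 (3.01). The curves of Dao and Homer3 were highest at fraction 1 and those of the other 6 at fraction 8 or 9. Among called trends in the horizontal series the widest were those of Dao (6.23) and Slc6a9 (2.81), both highest at fraction 4, and Shank2, a scaffold gene (1.84), highest at fraction 1. Among called trends in the sagittal series they were those of Slc6a9 (3.31), highest at fraction 5, Lin7b, a scaffold gene (2.05), highest at fraction 1, and Akap9, a kinase anchor (1.37), highest at fraction 4. Dao had a wider sagittal range of 7.13 that did not pass (adjusted p = 0.0683). With the array median none of the 42 sagittal trends passed, at adjusted p = 0.0744 for Slc6a9, 0.347 for Lin7b and 0.162 for Akap9. The ranges were then wider for Slc6a9 (3.83) and Akap9 (1.94) and narrower for Lin7b (1.53).

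The genes whose profile over the 28 fractions was most like that of a subunit were listed by Pearson r among named probes tested. For Grin2b they were Dapk1 (r = 0.96), Neto1, Grm5, Trpc4 and Cx3cl1 (0.94), and 79 symbols exceeded 0.85. For Grin2c they were Ppfia4 (0.95), Kank2, Msx2, Zfp747 and Rhbdf2 (0.94), with 130 symbols above 0.85. For Grin2a they were Lrrc8b (0.91), Pclo, Cacna2d1, Foxp1 and Homer1 (0.89), with 21 above 0.85. For Grin1 they were Atp6v0a1 (0.94), Lmtk3, Tmem63b, Nol6 and Mapre3 (0.90), with 34 above 0.85. For Grin2d they were Ncam1 (0.93), Mmp15, Adcyap1r1, Sall2 and Acaca (0.91), with 78 above 0.85.

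For Grin3b, chosen for this listing after its values were seen, they were Lingo4 (0.96), Flt3, Mab21l2, P2rx5 and Acrbp (0.93), with 93 symbols above 0.85. Homer1 near Grin2a and Neto1 near Grin2b also belong to the partner list. All these correlations rest on fractions that share brains, slides and array scaling.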

How the data were processed

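Brains of 3 mice were cut into 28 fractions, 1 array each. Cy3-labelled cRNA was read on 1-colour Agilent arrays. The deposited intensity values come, per the file headers, from Feature Extraction 10.5.1.1, which subtracts background from each spot. For 44721 probes the authors deposited a table of log2 values too. Against the arrays these equalled log2 processed signal minus the 75th percentile, with an offset of 0.000576 to 0.00758 and deviations of at most 2.4e-06, and they were used as an alternative.

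Here, outlier spots were left out (108 to 176 per array), log2 signals of a probe were averaged and the 75th percentile of the array was subtracted. No spot was saturated. A probe was taken as well above background where a share of 0.5 or more of its spots carried that flag. Tested were the probes with such a signal somewhere in every series, except 62 with no spot left on some array, which gave 32364. Symbols came from a RefSeq table of GRCm38.p6, which matched 27229 probes (48.9%). Apart from the promoter windows of Grin2c and Grin3b, gene positions are not printed, since the array was designed on another build.

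Trends were tested with limma 3.58.1 in R 4.3.3, by a natural spline with 3 degrees of freedom (coronal, sagittal) or 2 (horizontal), block differences by limma, and adjusted p is Benjamini-Hochberg over all probes tested, at 0.05. The fits were tested on simulated data. A span down to a fraction not well above background is a bound, set at the dimmest signal that was well above background on the array. The alternatives were array median, quantile normalization, normexp (offset 50, run on median spot signals because the files give no means), no filter, the mean of all probes, slide, fewer spline degrees of freedom and leaving out each fraction. Named genes were the 7 members, the partner genes with the widest called trends (8 coronal, 3 in each other series), those given a role, and for Grin1 and Grin2a to Grin2d the 5 most similar profiles. The members, the lists and the coronal blocks were chosen with earlier results of these data known. 1 gene of the partner list is not reported here.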

Additional observations from a re-analysis of the deposited data

Results flagged for a closer look

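Within series of 6 or 10 fractions, an end value was compared with its nearest neighbour by Dixon's ratio of gap to range. Of 14 sets of values, 3 exceeded the 95% critical value, where independent draws from the same distribution would give about 0.7. Fractions are ordered positions and the genes share arrays, so that figure is not a valid expectation for these sets. Grin1 in horizontal fraction 6 was the lowest of its series at 1.92, with the next fraction at 3.07, a ratio of 0.841. Grin2b in the same fraction was lowest at -0.33, with the next at 0.45, a ratio of 0.637. Under quantile normalization these ratios were 0.790 and 0.664 and with the array median 0.718 and 0.539. With the array median the ratio of Grin2b is below its critical value. That array had a 75th percentile of 233 and 30909 probes well above background. Grin2c in sagittal fraction 9 was lowest at 1.87, with the next at 2.69, a ratio of 0.478. It was 0.344 under quantile normalization, below the critical value, and 0.570 with the array median, on an array with a 75th percentile of 176.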

How the results depend on the processing

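No paired analysis was possible because a fraction number is a position along a different axis in each mouse, so equal numbers pair nothing. No called difference changed sign under any alternative run. Counts of called genes moved by more than 1.5 times in these cases. In the horizontal series 2 genes with a trend became 6 with the array median, under which 59.7% of all probes were called, 4 with normexp and 0 with 1 spline degree of freedom fewer, and 3 pairs became 0 with the latter and 0 without pooled variance. In the sagittal series 1 gene became 3 with normexp and 0 on fractions of 1 slide only, 0 pairs became 3 with normexp, and 0 genes of the middle fractions became 1 with the array median and 1 with normexp, Grin3b in both. Of the partner genes, whose counts by series were tried under other scalings after seeing the data, 12 horizontal ones became 39 and 4 sagittal ones 0 with the array median, while the 12 lower and 5 higher in coronal fractions 1 to 3 remained so with the array median and quantile normalization. With slide as an added term, 3 coronal genes became 1 and 7 coronal pairs became 1. Leaving out each fraction in turn gave 2 to 4 coronal genes, 0 to 3 horizontal and 0 to 4 sagittal ones with a trend, and 5 to 8, 0 to 5 and 0 to 4 pairs. The block differences gave 3 to 4 genes in coronal fractions 1 to 3, 0 in both fractions 11 and 12 and the horizontal blocks, and 0 to 3 in the middle sagittal fractions. Sagittal fraction 10 decided most of the gains, with 4 genes called without it, and sagittal fraction 9 gave 1 pair when left out. Without horizontal fraction 1 or 4 there were 0 pairs, without 2 there was 1, and without 6 there were 5. Coronal Grin2b minus Grin2a was lost without fraction 2 (adjusted p = 0.0575). The cause was not tested. The median over all probes of the sagittal middle difference moved from -0.08 to 0.38 with the array median and to -0.49 with no filter on dim probes, and that of the horizontal difference from 0.05 to 0.20 with the array median. Slide as a term could not be fitted for fractions 11 and 12, which lie on a slide of their own. Signal limits Grin2d, well above background on 22 of 28 arrays, and Grin3b, on 24.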
